A study of Mus musculus with 40 samples.

Results

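The comparison described here set 12 hr of tetracycline (Tet) against 0 hr in ZHBTc4 mouse embryonic stem (ES) cells, which carry a Pou5f1 transgene that Tet switches off. The members were 4 arrays, 2 at 0 hr and 2 at 12 hr, chosen by their labelled time from the 10 arrays of the early time course (up to 24 hr, 5 times with 2 arrays each) and from the 40 arrays of the whole series. ZHBTc4 is a single line of strain 129/Ola, labelled as transgenic and knock down, and its own Pou5f1 alleles are disrupted, so that the transgene is its source of functional POU5F1. Cells of both groups were grown without feeder cells in medium with LIF, Tet was added 24 hr after plating, and the 0 hr cells were harvested before it. No array without Tet was made at 12 hr, so that 12 hr of Tet and 12 hr more of culture cannot be told apart. On each array the Cy3 channel held RNA of the cells and the Cy5 channel held one common pool of mouse cell line RNA, and a level is given below as log2 Cy3/Cy5. Nothing in the labels says that the 2 arrays of a time came from separate cultures, so that p-values measure the spread between these arrays, which may be technical.

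POU5F1, also called OCT4, is a POU domain transcription factor that keeps ES cells pluripotent, and it binds DNA at an octamer motif, often beside SOX2. Loss of Pou5f1 in ES cells is known to lead toward trophectoderm, the outer layer of the blastocyst that gives rise to the placenta. A fall of a transcript within hours of Tet depends on the decay of both POU5F1 and that transcript.

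The median Cy3 signal over gene probes was between 610.62 and 648.22 on these 4 arrays, with a local background of 381 to 383, and 0.833% to 1.4% of probes lay below the 95th percentile of the negative controls. The log ratios of the 0 hr arrays correlated at 0.977 across probes, those of the 12 hr arrays at 0.958, and arrays of different times at 0.908 to 0.969. The Cy5 signal of the reference was not the same on the 4 arrays. The mean log10 Cy5 signal of the 100 most variable reference probes was 3.228 and 3.372 at 0 hr but 3.197 and 2.803 at 12 hr, replicate 2 at 12 hr being the lowest. A lower Cy5 raises the ratio, so the change of each channel alone is given beside the ratio, and the part of this drift in single results was not tested.

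Pou5f1 itself was measured by 2 probes with different outcomes. Their first 30 bases are shown because the result of the targeted gene turns on which one is read, and the letters are as the array design gives them.
Pou5f1 probe 1: agatcaagtattgagtattcccaacgagaa
Pou5f1 probe 2: gaaggtggaaccaactcccgaggagtccca
Probe 1 read a log2 ratio of 2.92 and 1.52 at 0 hr, then -0.17 and -0.47 at 12 hr, so that both 12 hr arrays lay below both 0 hr arrays. The 0 hr arrays differed from each other, with a Cy3 signal over background of 1958 and 475, against 116.5 and 142.1 at 12 hr. The change was -2.54 (standard error 0.34, adjusted p = 0.0140 by limma), and without replicate 2 at 12 hr it was -2.39 with an adjusted p of 0.156. Without 0 hr replicate 1 it was -1.84, and without 0 hr replicate 2 it was -3.24. On this probe the difference from 0 hr was -1.83 after 3 hr, -2.53 after 6 hr and -2.79 by 24 hr. Probe 2, the brighter of the pair, read 3.97 on each 0 hr array and 3.86 and 3.80 at 12 hr. Its change of -0.14 (standard error 0.15, adjusted p = 0.62) did not pass the test, and a further fall at 24 hr reached -0.55. The late arrays, a separate experiment of 24 to 120 hr with 3 arrays a time, carry the sequence of probe 1, where Pou5f1 differed from 0 hr by -2.18 at 24 hr (adjusted p = 2.41e-10) and by -2.07 at 120 hr. In the deposited normalized values, used as an alternative, the change of probe 1 was -2.91 (adjusted p = 0.00407 by limma), and probe 2 had no value. The paper reports that Pou5f1 mRNA and its protein both fell within hours of Tet in these cells. It shows PCR with primers for the transgene and a western blot, which were not measured again here. The small change of probe 2 therefore does not show that Pou5f1 stayed unchanged. The cause of the difference between the probes was not tested.

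Of 39012 genes tested (each named gene by its brightest probe, each probe without a symbol on its own), 149 were lower and 84 higher at 12 hr at an adjusted p under 0.05 and at least 1.5-fold, which is 0.382% and 0.215% of those tested and 0.597% together. At an unadjusted p under 0.05 there were 8060 genes. A symbol was known for 109 of the lower and 52 of the higher genes. The change was 2-fold or more in 28 of the lower and 15 of the higher genes. Both 12 hr arrays lay on one side of both 0 hr arrays in 148 of the lower and 83 of the higher genes, but that held for 53% of all genes. In Cy3 alone, 439 genes were lower and 239 higher, 1.13% and 0.613% of those tested and 1.74% together. Calls by both measures numbered 83 lower, 55.7% of the lower calls by ratio and 18.9% of those by Cy3, and 56 higher, 66.7% and 23.4%. In Cy5 alone limma called 0 genes (0%), with 4400 at an unadjusted p under 0.05. The median Cy5 change was 0.17 in the 149 lower and -0.01 in the 84 higher genes, and a higher Cy5 lowers the ratio. At least 1.5-fold the same way in Cy3 alone were 85 of the lower and 58 of the higher genes. The counts rested on single arrays: they were 24 lower and 2 higher without 0 hr replicate 1, 22 and 5 without 0 hr replicate 2, 25 and 8 without 12 hr replicate 2, 237 and 1038 without 12 hr replicate 1, and 86 and 33 without either array of 3 hr. Calls made in each of these fits and in the fits without a 6 or 24 hr array numbered 21 lower and 1 higher, and each of them was also called in Cy3 alone.

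**Figure D1:**
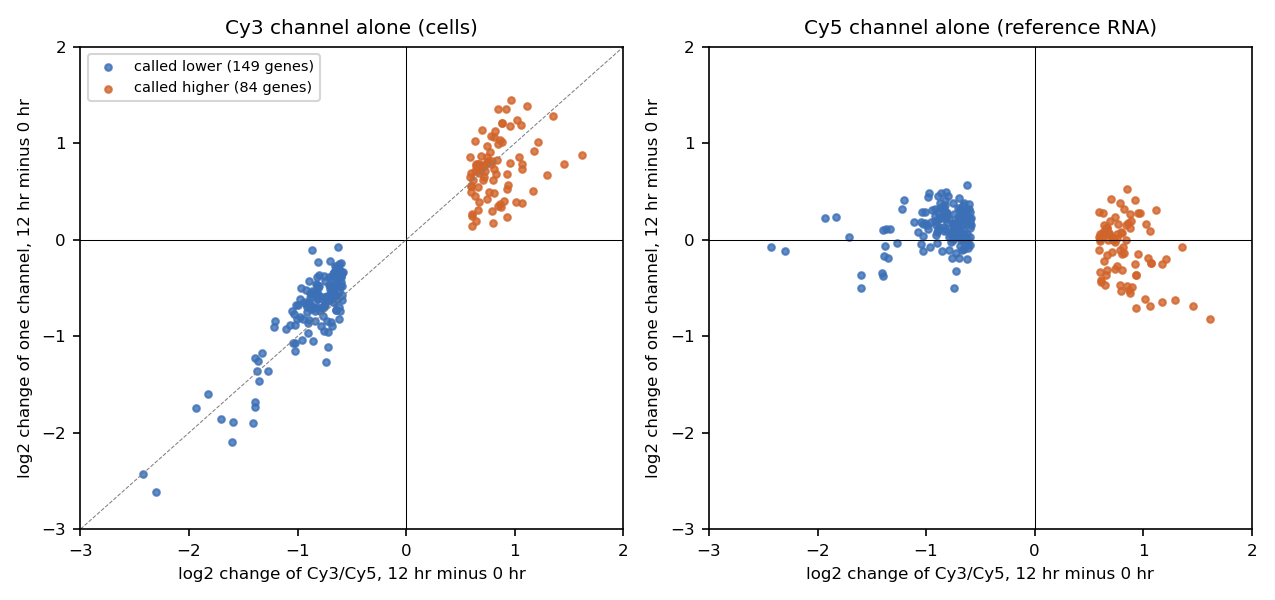
Change from 0 to 12 hr of the 233 called genes, with the log2 change of Cy3/Cy5 on the horizontal axis and the log2 change of 1 channel on the vertical axis. Cy3, the cells, follows the ratio on the left (dashed line, equality), while on the right several of the genes called higher have a lower Cy5 signal, down to -0.82. The median Cy5 change is 0.17 in the genes called lower and -0.01 in those called higher.

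The genes below have a symbol and are those called with the groups not overlapping and at least 1.5-fold the same way in Cy3 alone, the 15 with the largest fall and the 15 with the largest rise, and with them called members of the gene lists, up to 6 a list. For the first 30 the absence of overlap was thus set by the choice, and transcripts without a symbol were counted but not named.

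Several transcription factors fell. Foxd3, a forkhead factor of ES and neural crest cells, read 2.37 and 2.40 at 0 hr, then 0.67 and 0.45 at 12 hr, a change of -1.83 (standard error 0.11, 3.55-fold, adjusted p = 0.0003). Zfp296, a zinc finger protein of ES and germ cells, went from 2.83 and 2.91 to 1.20 and 1.12 (change -1.71, adjusted p = 0.00039). Nr0b1, the orphan nuclear receptor DAX1, went from 3.91 and 3.97 to 2.51 and 2.59 (change -1.39, adjusted p = 0.00039). Myc, the growth-promoting bHLH factor that LIF sustains in ES cells, fell from 0.06 and 0.19 to -1.15 and -1.27 (adjusted p = 0.0014), and its second probe fell by 1.02 on the log2 scale. Meis2, a homeodomain factor, read -1.83 and -2.06 at 0 hr, then -3.05 and -3.25 at 12 hr, and its change of -1.21 was -0.84 in Cy3 alone. Klf2 and Klf4 are Krüppel-like factors of the naive pluripotent state. Klf2 fell from 3.87 and 3.64 to 2.82 and 2.64 (change -1.03, adjusted p = 0.0112), with -0.81 on its second probe. Klf4 fell from 0.89 and 0.72 to 0.04 and -0.19 (change -0.88, adjusted p = 0.0343), with -0.66 on its second probe (adjusted p = 0.026). Both probes of each Krüppel-like gene thus moved down past the test. Klf4 was called in 5 of 10 fits that left out an array and Klf2 in 7, while Foxd3, Zfp296, Nr0b1 and Myc were called in all 10. Id3, an inhibitor of bHLH factors and a target of BMP, went from -0.81 and -0.94 to -1.88 and -1.97 (change -1.05, adjusted p = 0.0014).

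Among 41 measured pluripotency regulators, with Pou5f1 counted by its brighter probe, 7 fell and none rose, or 17.1% against 0.597% of all genes. All genes include probes without a symbol, which no list can hold and among which calls were rarer. Of the 13604 genes with a symbol, 109 were called lower and 52 higher, so 0.597% is a low measure for any list. The 6 with the largest change were Foxd3, Jam2, Tet2, Nr0b1, Klf2 and Klf4. At an unadjusted p under 0.05, 17 members were lower and 2 higher, beside 12.2% and 8.46% of all genes. In Cy3 alone 15 passed the test, all lower, beside 1.13% lower and 0.613% higher of all genes. The list median was -0.22, against -0.05 over all genes. The list was chosen with earlier results of these data known and is no independent evidence of direction. Sox2, the partner of POU5F1 on DNA, read 5.40 and 5.64 at 0 hr, then 5.53 and 5.19 at 12 hr (change -0.16, adjusted p = 0.55). Nanog, a homeodomain factor of pluripotency, read 2.32 and 2.69, then 2.72 and 2.60 (change 0.16, adjusted p = 0.474). Zfp42, the ES cell marker REX1, read 4.84 and 5.10, then 5.04 and 4.65 (change -0.12, adjusted p = 0.672). In these 3 genes the arrays of the 2 times overlapped. Cy3 alone gave -0.18, -0.44 and -0.63 for Sox2, Nanog and Zfp42, and Zfp42 passed the test there (adjusted p = 0.00289). The Cy3 signal of Zfp42 ran from 44092 to 65384, near the 65517 at which Dppa5a was saturated on all 4 arrays, although Zfp42 was flagged as saturated on none.

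Of 30 measured polycomb, DNA methylation and histone demethylase genes, Tet2 and Eed were called lower and none higher. This is 6.67%, against 0.597% of all genes, which count probes without a symbol. At an unadjusted p under 0.05, 11 members were lower and 3 higher, beside 12.2% and 8.46% of all genes. In Cy3 alone 5 were called lower and 1 higher, beside 1.13% and 0.613%. Phc2 (0.54, adjusted p = 0.0406) and Kdm5b (-0.54, adjusted p = 0.0455) fell short of the call by size. Tet2, which oxidises 5-methylcytosine in DNA, fell from 1.93 and 1.97 to 0.65 and 0.46 (change -1.40, standard error 0.10, 2.63-fold, adjusted p = 0.00039). Eed, a core subunit of polycomb repressive complex 2, went from 2.36 and 2.59 to 1.79 and 1.65 (change -0.75, adjusted p = 0.0238). Its call was lost in some of the fits that left out an array. Suv39h1, the histone H3 lysine 9 methyltransferase, rose from 0.17 and -0.13 to 1.03 and 1.44 (change 1.21, adjusted p = 0.014), with 1.01 in Cy3 alone. Suv39h1 is outside that list. Dnmt3b, a de novo DNA methyltransferase, had nearly equal means at both times (4.45 and 4.55, then 4.50 and 4.51, adjusted p = 0.992). Hmces, which shields abasic sites in DNA, fell from 1.63 and 1.72 to 0.38 and 0.22 (change -1.38, adjusted p = 0.00039).

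Among genes with a symbol, read by their brightest probe, the largest fall was that of Slc7a3, a transporter of the cationic amino acids arginine and lysine. It read 2.77 and 2.85 at 0 hr, then 0.48 and 0.54 at 12 hr, a change of -2.30 (standard error 0.13, 4.94-fold, adjusted p = 0.000241). Its second probe changed by -1.93, and in Cy3 alone the change was -2.61. The signal of Slc7a3 over background was 10380 and 9421 at 0 hr, then 1489 and 1743 at 12 hr, well inside the range of the scanner. Vegfc, a growth factor of lymphatic endothelium, went from 0.99 and 1.02 to -0.82 and -1.03 (change -1.93, 3.82-fold, adjusted p = 0.000241). Ntn1, the guidance cue netrin 1, fell by 1.22 on its brighter probe (adjusted p = 0.000553), while its dimmer probe changed by -0.11 (adjusted p = 0.817). Sfrp1, a secreted antagonist of Wnt, went from 1.10 and 1.09 to 0.26 and 0.11 (change -0.91, adjusted p = 0.0024).

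Jam2, a junctional adhesion molecule, went from 3.36 and 3.62 to 2.02 and 2.14 (change -1.41, adjusted p = 0.0014), whereas its dimmer probe gave -0.41 (adjusted p = 0.12). Cobl, an actin nucleator, went from 2.35 and 2.15 to 0.80 and 0.51 (change -1.60, adjusted p = 0.0014). Enox1, a cell surface oxidase of NADH, changed by -1.39 on its brighter probe (adjusted p = 0.000553) and by -0.43 on the other (adjusted p = 0.121). For Jam2, Enox1, Ntn1 and Ei24 the second probe had the same sign but did not pass. Dpp4, a surface peptidase, fell by 1.11 (adjusted p = 0.0014), and Lrpap1, a chaperone of LDL receptor proteins, by 1.07 (adjusted p = 0.00424). Hk2, the hexokinase that starts glycolysis, was the 1 called member of 24 measured hypoxia and glycolysis genes (change -0.87, adjusted p = 0.00804). Ei24, a p53-induced gene of the endoplasmic reticulum, was the 1 called of 19 p53 targets (change -0.89, adjusted p = 0.0189), and its second probe gave -0.54 (adjusted p = 0.137). Cdkn1a, the p21 inhibitor of the cell cycle, read -0.13 and -0.30 at 0 hr, then 0.54 and 1.17 at 12 hr (adjusted p = 0.067).

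**Figure D2:**
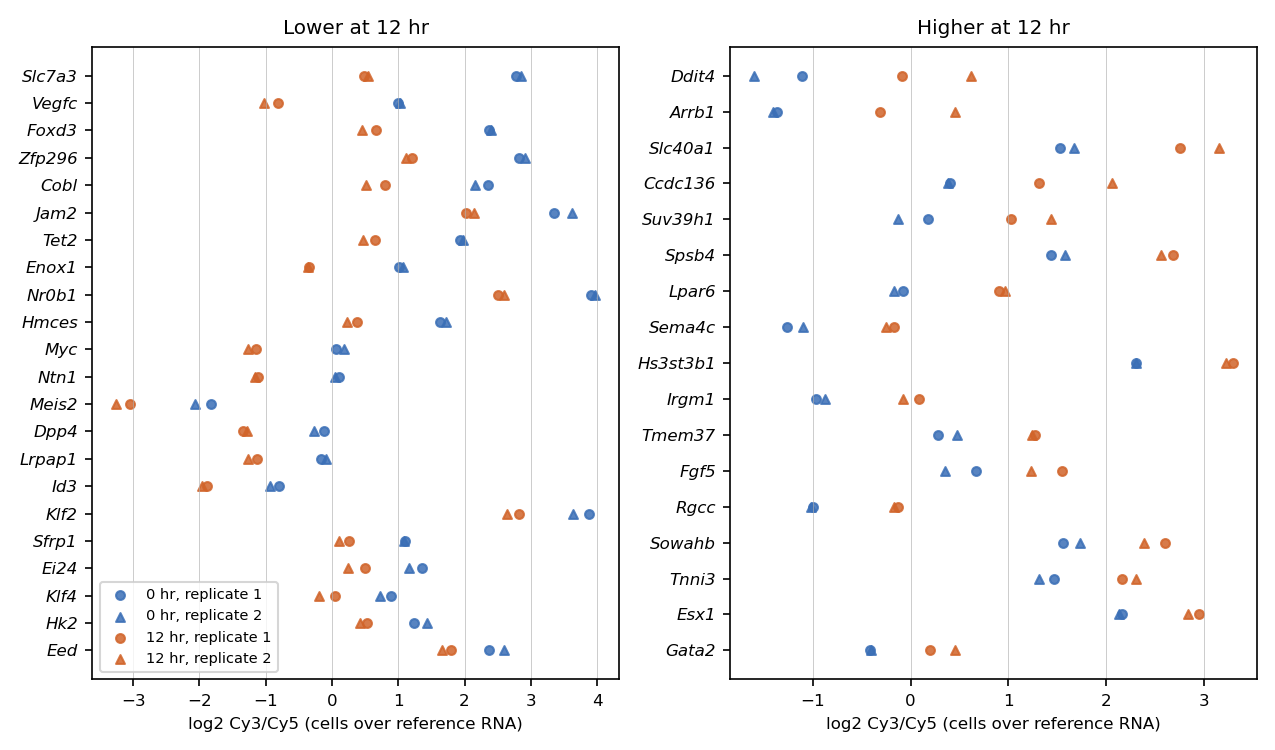
Log2 Cy3/Cy5 on each of the 4 arrays for the 22 named genes called lower (left) and the 17 called higher (right), circles for replicate 1 and triangles for replicate 2. The 0 and 12 hr arrays do not overlap in any gene shown, which the choice of the genes required of most of them, and the 12 hr arrays lie furthest apart in Ddit4, Arrb1 and Ccdc136.

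Genes that rose included markers of the placental lineage. Esx1, a homeobox gene of the placenta, read 2.16 and 2.13 at 0 hr, then 2.95 and 2.83 at 12 hr, a change of 0.74 (standard error 0.11, 1.67-fold, adjusted p = 0.0167). Gata2, a GATA factor of trophoblast and blood, went from -0.41 and -0.40 to 0.20 and 0.45 (change 0.73, adjusted p = 0.0421). Both rose by a similar amount in Cy3 alone, 0.86 and 0.71. Over the alternatives run the change of Esx1 was 0.38 to 0.86 and that of Gata2 0.33 to 0.90. Both calls were lost in some of the fits that left out an array. These were the 2 called of 33 measured trophectoderm and placental genes (6.06%, against 0.597% of all genes), and none was called lower. At an unadjusted p under 0.05, 14 members were higher and 1 lower, beside 8.46% and 12.2% of all genes, and 8 were at least 1.5-fold higher with none as far lower. Of all 39012 genes, 1256 were at least 1.5-fold higher and 205 as far lower. The lean to rises was not particular to this list. Of 20 measured primitive endoderm genes, 7 were higher and 4 lower at an unadjusted p under 0.05. In that list 4 were at least 1.5-fold higher and 0 as far lower. Of 18 measured epiblast, mesoderm and neural genes, 4 were at least 1.5-fold higher and 0 as far lower. Gata3 read -0.16 and -0.25 at 0 hr, then 0.67 and 0.53 at 12 hr, a change of 0.81 with an adjusted p of 0.107 (in Cy3 alone 1.02, adjusted p = 0.000464). Hand1, a bHLH factor of trophoblast, changed by 0.46 (adjusted p = 0.0633) and in Cy3 alone by 1.62 (adjusted p = 0.000791). Cdx2, the caudal factor that sets up trophectoderm, read -0.33 and -0.36, then -0.43 and -0.71, with a change of -0.22 (adjusted p = 0.276). The paper states that its array probe for Cdx2 was not responsive and took its Cdx2 data from PCR. It lists Cdx2 among trophectoderm factors activated within 12 hr, so this array value does not show that Cdx2 stayed unchanged. The summed Cy3 signal of 8 trophectoderm markers, Cdx2 among them, was 20650 and 23740 at 0 hr, then 26970 and 29610 at 12 hr. None of the 8 was called by ratio. In mean raw Cy3 signal Krt18 went from 11760 to 14780 (ratio change 0.19, adjusted p = 0.546), Tfap2c from 3178 to 5419 and Hand1 from 792.1 to 1674. Krt7 went from 6498 to 5956, and Cdx2 and Elf5 were also slightly lower. The summed Cy3 signal of 8 ES cell markers was 194500 and 203100, then 156000 and 157500. The 2 brightest of these, Zfp42 and Dppa5a, lay near the top of the scanner range at 0 hr. In mean raw Cy3 signal Zfp42 went from 64620 to 45620, Dppa5a stayed at 65520, and Tdgf1 went from 28380 to 11870. The ratio of Tdgf1 changed by -0.27 (adjusted p = 0.197).

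Most of the other named rises were outside the gene lists. Slc40a1, the iron exporter ferroportin, read 1.53 and 1.67 at 0 hr, then 2.75 and 3.16 at 12 hr (change 1.36, 2.56-fold, adjusted p = 0.0261). Spsb4, a SOCS box protein, went from 1.44 and 1.58 to 2.68 and 2.56 (change 1.11, adjusted p = 0.0014) and was called higher in each fit that left out an array. Sema4c, a transmembrane semaphorin, went from -1.26 and -1.10 to -0.17 and -0.26 (change 0.97, adjusted p = 0.00424), and Cy3 alone gave 1.45. Lpar6, a lysophosphatidic acid receptor, rose by 1.06 (0.78 with the correction of Cy5 bleaching, adjusted p = 0.168), Hs3st3b1, a heparan sulfate sulfotransferase, by 0.96, and Rgcc, a regulator of the cell cycle, by 0.86. Irgm1, an interferon-inducible GTPase, went from -0.96 and -0.88 to 0.08 and -0.07 (change 0.92, adjusted p = 0.00463). Fgf5, a growth factor that marks the epiblast after implantation, went from 0.66 and 0.35 to 1.54 and 1.23 (change 0.88, adjusted p = 0.0217), at a Cy3 signal over background of 71.46 and 61.84, then 161.6 and 171.3. It was the 1 called of 18 measured epiblast, mesoderm and neural genes. Tmem37 (0.88), Sowahb (0.85) and Tnni3, cardiac troponin I (0.84), rose with adjusted p-values of 0.0183, 0.0151 and 0.0095.

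In 3 of the named rises the reference signal itself was lower at 12 hr by over 1.5-fold. Ddit4, a stress-induced inhibitor of mTORC1, read -1.11 and -1.60 at 0 hr, then -0.09 and 0.61 at 12 hr, a change of 1.62 (standard error 0.27, adjusted p = 0.0374), with 0.88 in Cy3 alone and -0.82 in Cy5. Arrb1, beta-arrestin 1, changed by 1.46 in the ratio, 0.79 in Cy3 and -0.69 in Cy5, and its second probe by 0.42 (adjusted p = 0.067). Ccdc136 changed by 1.30 in the ratio, 0.67 in Cy3 and -0.63 in Cy5. With the study's correction of Cy5 bleaching the changes of Ddit4, Arrb1 and Ccdc136 were 0.64, 0.63 and 0.67, with adjusted p-values of 0.299, 0.144 and 0.0465.

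In the other lists 0 to 2 members passed, beside 0.597% of all genes called by ratio, 1.74% in Cy3 alone and 20.7% at an unadjusted p under 0.05. These shares of all genes again count probes without a symbol. Of 27 FGF and ERK genes Myc fell and Fgf5 rose, of 16 LIF and STAT3 genes Klf4 fell, of 19 BMP and Id genes Id3 fell, of 17 Wnt genes Sfrp1 fell, of 36 cell cycle genes Myc fell, of 20 immediate early genes Myc fell, and of 23 ATF4 and amino acid stress genes Ddit4 rose. No member passed among 20 primitive endoderm, 17 Nodal and Lefty, 13 cholesterol synthesis, 16 heat shock and 18 fibroblast or feeder cell genes, with 11, 3, 2, 1 and 5 members at an unadjusted p under 0.05 and 5, 3, 0, 0 and 2 called in Cy3 alone. Lefty1, a Nodal antagonist, read 2.73 and 2.77 at 0 hr, then 2.77 and 2.78 at 12 hr (adjusted p = 0.955), and its difference at 24 hr was -1.57. Gata6, which marks primitive endoderm, changed by 0.76 (adjusted p = 0.109). The summed Cy3 signal of 7 fibroblast or feeder markers was 2754 to 2871 at 0 hr and 2674 to 2883 at 12 hr, so that those ranges overlapped.

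**Figure D3:**
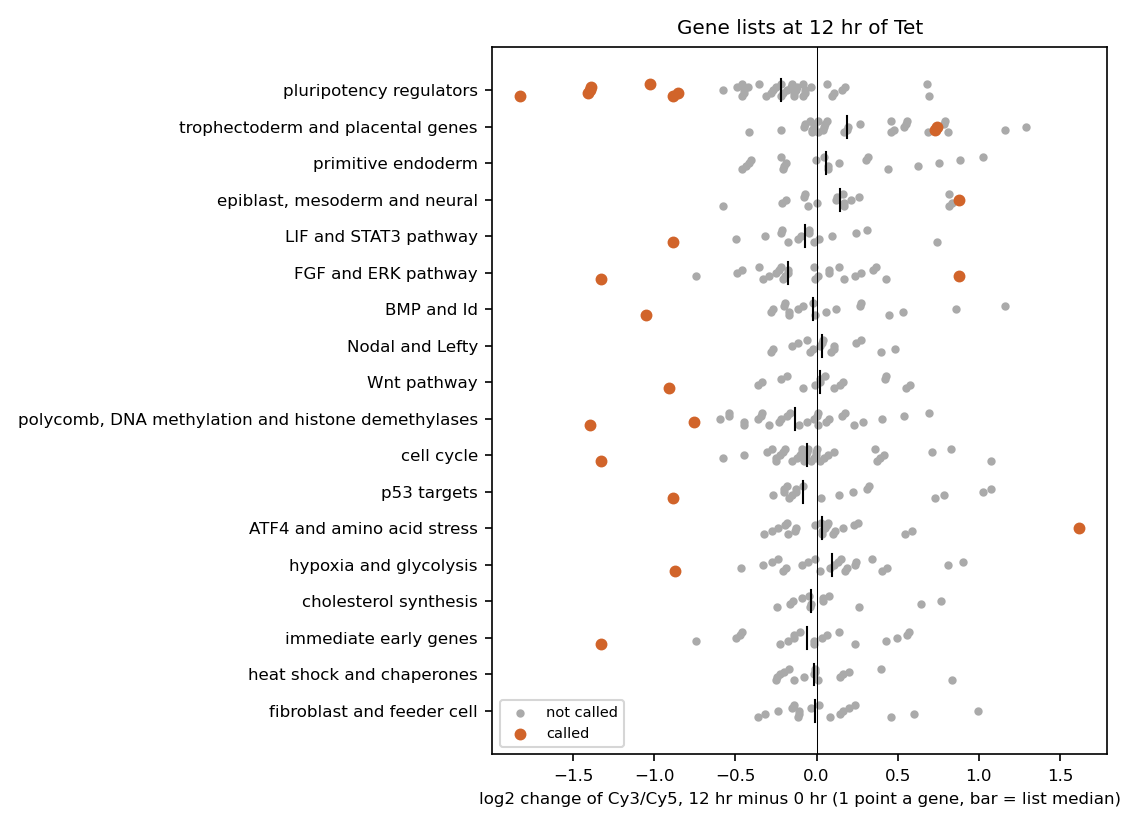
Log2 change of Cy3/Cy5 from 0 to 12 hr of the measured members of 18 gene lists, 1 point a gene, with called genes in orange and the list median as a bar. The called genes lie at the low end of the pluripotency list, and called and uncalled trophectoderm genes overlap in size.

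The other times of the early arrays, read against the same 0 hr arrays, place the 12 hr values in a course. In the 149 genes called lower the median difference from 0 hr went through -0.12, -0.35, -0.76 and -1.10 at the successive times of 3, 6, 12 and 24 hr. In the 84 called higher it was 0.11, 0.39, 0.79 and 0.86. A difference of 1.5-fold in the same direction was already present in 2 of the lower and 1 of the higher genes at 3 hr, and in 19 and 25 at 6 hr. Foxd3 was 1 of those early genes, at -0.65 at 3 hr and -1.38 at 6 hr. Slc7a3 was at -0.12, -0.57, -2.30 and -3.07 in the same order of times, and Jam2 at -0.01, -0.18, -1.41 and -2.90. Klf2 and Klf4 were at -0.73 and -0.63 at 24 hr, no lower than at 12 hr, but in Cy3 alone Klf2 was at -1.07 at 12 hr and -1.23 at 24 hr, with -0.61 and then -0.46 for Klf4. At 24 hr the difference was under 1.5-fold in 15 of the genes called lower and in 22 of those called higher, and of opposite sign in 1 and 7. Fgf5 and Irgm1 were among those of opposite sign, at -0.37 and -0.31, and Esx1 went the other way, to 2.08. Since these arrays chose the genes, the course is a description and has no test.

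**Figure D4:**
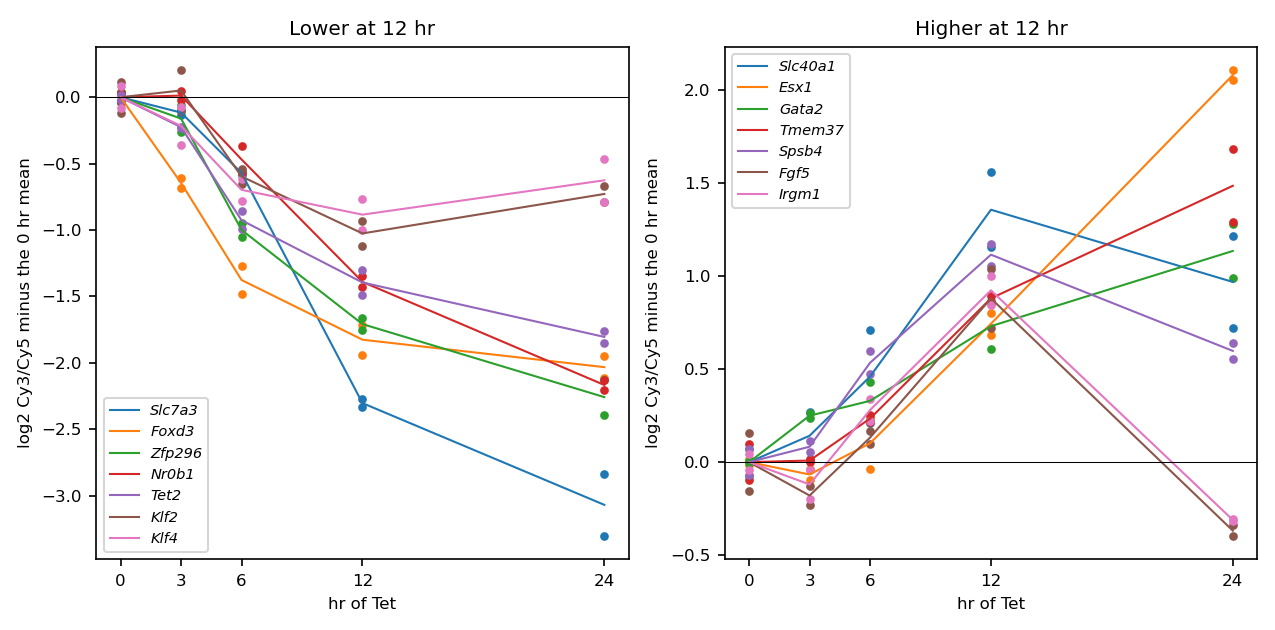
Log2 Cy3/Cy5 minus the 0 hr mean over the first 24 hr of Tet, points for single arrays and lines for their mean. Falling genes are on the left, where Slc7a3 drops mainly after 6 hr, and rising genes on the right. There Fgf5, Irgm1, Slc40a1 and Spsb4 are higher at 12 hr than at any other time, and Fgf5 and Irgm1 lie below the 0 hr mean at 24 hr.

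The late arrays shared no sample with the early ones and held a probe of the same sequence for 101 of the genes called lower and 55 of those called higher. At 24 hr on these arrays 64 of the 101 (63.4%) were lower by at least 1.5-fold at an adjusted p under 0.05, against 3.82% of all genes with a shared probe, and 1 was higher. Of the 55, 22 (40%) were higher, against 4.19%, and 2 were lower. With Cy3 alone on both sets, and by 1.5-fold with no test on the late arrays, 69 of 217 genes called lower were lower (31.8%, against 4.85% of genes with a shared probe) and 77 of 159 called higher were higher (48.4%, against 7.5%). At 120 hr the shares were 65 of 101 (64.4%, against 8.88%) and 22 of 55 (40%, against 12.8%), and 11 of the 55 had become lower. Vegfc differed from 0 hr by -3.41 at 24 hr on the late arrays, Jam2 by -3.20, Nr0b1 by -2.27, Tet2 by -2.10, Foxd3 by -1.70 and Zfp296 by -1.39. Slc40a1 was at 2.77, Hs3st3b1 at 2.28, Esx1 at 1.78 and Gata2 at 1.57, the last reaching 4.51 at 120 hr. Of the named genes with a shared probe, 17 of 18 called lower and 11 of 13 called higher had the sign of their 12 hr change at 24 hr on the late arrays. Over all called genes with a shared probe, 94 of 101 lower and 38 of 55 higher genes had that sign. Of the 17613 genes not called, 8928 were below 0 and 8685 above. The late values had no part in the calls at 12 hr, although some of the symbols came from tables of responding genes of the study. Among the named genes the exceptions were Ddit4 at -0.44, Ccdc136 at -0.34 and Ntn1 at 0.24, and Lrpap1 was at -0.05. Id3 was at -0.38 at 24 hr and at 1.75 at 120 hr.

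**Figure D5:**
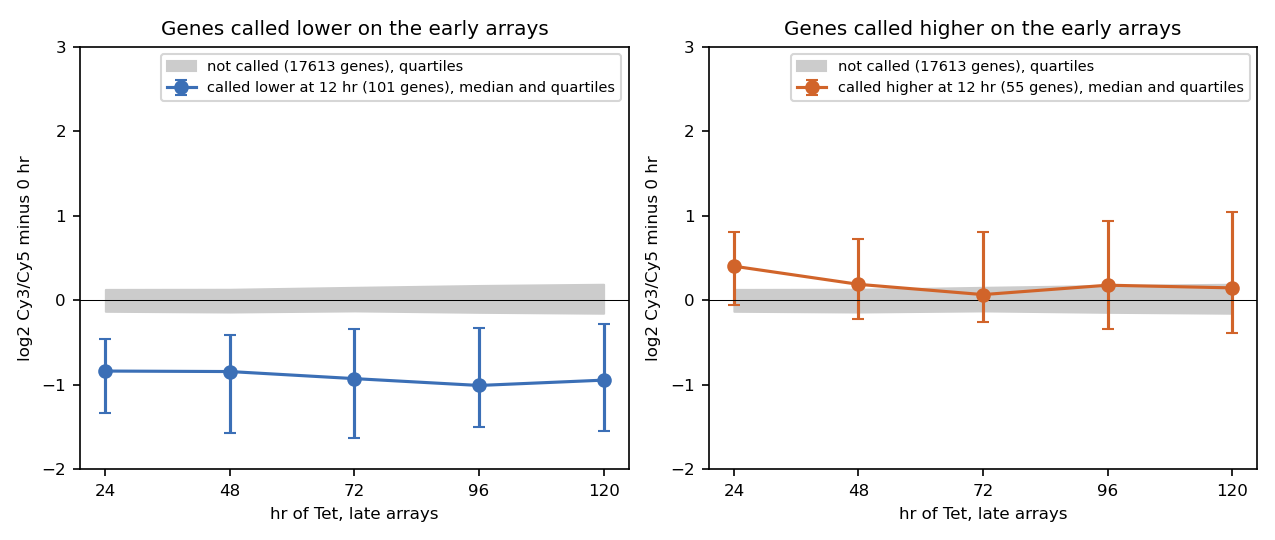
Log2 Cy3/Cy5 minus 0 hr on the late arrays, 3 arrays a time, for the 101 genes called lower (left) and the 55 called higher (right) at 12 hr on the early arrays, as medians with quartiles, over the quartiles of the 17613 genes not called (grey). The lower genes stay near -0.84 to -1.01, while the median of the higher genes drops from 0.40 at 24 hr to 0.07 at 72 hr.

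Promoters were read from RefSeq (build GRCm38.p6), 300 bases a gene from 250 before to 50 after its start, and searched on both strands for the octamer ATGCAAAT, at which POU factors bind. Of genes with a promoter, 2 of 85 called lower (2.35%) and 1 of 41 called higher (2.44%) held it, against 1.97% of all 27025 genes, so that the shares lay near that of all genes. The windows of 50 bases around these 3 matches are shown for their letters, on the strand of the gene, with the match in capitals (ATTTGCAT is the octamer read on the other strand). A match is no evidence of binding, and these 300 bases hold no distant enhancer.
Zfp296, chr7:19577155-19577204, + strand: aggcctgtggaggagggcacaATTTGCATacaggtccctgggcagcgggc
Lgr4, chr2:109917577-109917626, + strand: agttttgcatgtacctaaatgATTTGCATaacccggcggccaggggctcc
Hs3st3b1, chr11:63922353-63922402, - strand: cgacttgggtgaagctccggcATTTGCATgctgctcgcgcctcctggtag
Zfp296 fell and Hs3st3b1 rose as given above, and Lgr4, an R-spondin receptor named here only for its match, went from 1.35 and 1.78 to 0.74 and 0.63 (change -0.88, adjusted p = 0.0226). The match began 111 bases before the gene start in Zfp296, 49 in Lgr4 and 97 in Hs3st3b1.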

How the data were processed

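RNA of ZHBTc4 cells (Cy3) was hybridised with a common reference (Cy5) on Agilent arrays, without dye swap. The deposited files hold spot intensities from Feature Extraction 7.5.1, and the value table deposited by the authors holds normalized log10 Cy3 values of 25609 probes (column medians 2.939 to 2.991, correlating at 0.987 to 0.997 with the processed Cy3 signal, with their normalization not stated in full), used as an alternative. Local background was subtracted with normexp (offset 50), ratios were normalized by loess within arrays with control spots at weight 0, outlier spots were left out, saturated spots kept, and spots of 1 probe averaged (limma 3.58.1, R 4.3.3). The fit took all 10 early arrays, with 12 hr minus 0 hr as the contrast, Benjamini-Hochberg adjustment over all probes, and calls at an adjusted p under 0.05 and 1.5-fold. On simulated data the fit was tested before use. Cy3 and Cy5 alone were quantile-normalized. Symbols came from accessions of identical probes (14761 of 42006 probes) or from tables of the study (1837), some of which list responding genes, so that named genes lean towards responders, and 25408 probes stayed without one. Late arrays were joined by identical probe sequence. Named genes were Pou5f1, the 15 largest falls and 15 largest rises among genes with a symbol by the rule in the text, and up to 6 called members of each list, with up to 3 further members as values. The members and lists were chosen with earlier results of these data known. All 10 files were extracted on 1 day and give no scan date, so that no scan batch could be fitted. Same-numbered arrays were checked for pairing: their deviations correlated between -0.136 and 0.337, above 0.1 in 6 of 10 pairs of times but not between 0 and 12 hr, so the numbers were not taken as pairs. The number of arrays, 2 a time, limits the precision.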

Additional observations from a re-analysis of the deposited data

How the results depend on the processing

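Counts of genes called lower and higher, 149 and 84, were 57 and 27 without background subtraction, 51 and 22 with the processed signals of Feature Extraction, 439 and 239 in Cy3 alone after quantile normalization, 577 and 284 in Cy3 scaled to the 75th percentile, and 0 and 0 with the error variance of the study's methods (no shrinkage; 587 and 1209 at an unadjusted p under 0.05, lowest adjusted p 0.497). The count of higher genes alone moved to 23 with the values normalized by the authors, 1252 with only the 4 arrays of 0 and 12 hr, 384 with a replicate block and 39 with a crossed replicate block, the last added after the data were seen because the deviations of the 0 and 12 hr arrays correlated at -0.136. Leaving out 1 array gave 22 to 237 lower and 2 to 1038 higher genes, the lone array of a time being assumed to vary like the others. Pou5f1 by its brighter probe changed by -0.14 and, over arrays left out, by -0.17 to -0.11, by 0.075 with the processed signals, and by -1.34 as the mean of its probes (adjusted p = 0.022). Its probe 1 was lower at 12 hr in every alternative run on it, from -1.46 without background subtraction to -3.24 without 0 hr replicate 2. The call of probe 1 was lost without background subtraction (adjusted p = 0.105 by limma) and with the error variance of the study's methods (adjusted p = 0.799). As given above, it was also lost without 12 hr replicate 2. The share of genes called lower that were lower on the late arrays at 24 hr was 63.4% of 101 by ratio. With Cy3 alone on both it was 31.8% of 217, a different set of genes. For genes called higher the shares were 40% of 55 and 48.4% of 159. The ratio shares asked for 1.5-fold and an adjusted p under 0.05 on the late arrays, the Cy3 shares for 1.5-fold with no test. The cause of these shifts was not tested. Of the other 39 named genes none changed sign under the alternatives run. Calls were lost in 15 without background subtraction, 17 with the processed signals, 9 of 38 with the values of the authors, all 39 with the error variance of the study's methods, 1 and 3 in Cy3 alone (quantile and 75th percentile), 3 with the bleaching correction, 1 with the mean of probes, 2 with a variance trend, 7 with the crossed block, and 0 to 22 when 1 array was left out. The Aquantile step leaves ratios as they are, and the call well above background removed 0 probes. The scan date as a block was not run.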
